A study of Mus musculus with 20 samples.

Results

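The left ventricles of 4 mice fed rosuvastatin were compared with those of 4 mice fed chow alone, using 8 of the 20 expression arrays of a study of 4 statins. The members were chosen by their titles: 4 arrays labelled rosuvastatin and 4 labelled control. Rosuvastatin mice ate standard chow mixed with powdered tablets of rosuvastatin calcium at 10.9 mg/kg/day for 4 weeks, and control mice ate the same chow with nothing added. All were male C57BL/6J mice, which arrived at 6 weeks of age and were acclimated for 2 weeks. The other 12 arrays come from mice fed pitavastatin, pravastatin or atorvastatin, with 4 mice for each. Each array holds the left ventricle RNA of 1 mouse, amplified before labelling. Its probe sets each read a stretch of a transcript, often several per gene, and values are given as log2(signal + 16), with differences as rosuvastatin minus control. The 4 mice per group limit the precision of every comparison, and the labels give no processing batch.

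Statins block 3-hydroxy-3-methylglutaryl-coenzyme A reductase, the step that commits carbon to the mevalonate pathway. That pathway supplies cholesterol, coenzyme Q and the prenyl groups that anchor small GTPases in membranes. When sterols run low in a cell, the SREBP transcription factors raise the genes of sterol synthesis and uptake. Rosuvastatin is a hydrophilic statin that is taken up mostly by the liver, and the heart takes most of its energy from mitochondrial oxidation of fatty acids.

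The samples were heart muscle by their markers, which do not measure how much atrial tissue a sample held. The 5 sarcomere genes Myl2, Myh6, Tnnt2, Tnni3 and Actc1 lay at or above the 99.6th percentile of all probe sets on each of the 8 arrays. The arrays themselves were not alike. The median signal was 71.8, 83.74, 41.66 and 85.41 in rosuvastatin 1 to 4, against 97.77, 80.54, 83.58 and 119.2 in control 1 to 4. Rosuvastatin 3 and rosuvastatin 1 were the dimmest of the 8, and the log2 medians averaged 6.09 ± 0.48 in rosuvastatin and 6.56 ± 0.26 in control hearts (SD, n = 4 each; exact permutation p = 0.171, two-sided). The share of probe sets below a signal of 50 was 52.5% in rosuvastatin 3 and 37.8% to 42.5% in the other rosuvastatin arrays, against 27.8% to 39.8% in control. The 18S ribosomal RNA probe set read 3487, 3634, 5346 and 2972 in rosuvastatin 1 to 4, against 2240, 2690, 2605 and 2793 in control 1 to 4. These groups did not overlap, with a 1.46-fold higher mean in rosuvastatin, and 0.0286 is the smallest two-sided p that exact permutation of 4 against 4 arrays can give (0.114 after Benjamini-Hochberg adjustment over 4 array measures). The 3' to 5' ratios of the Gapdh and Actb controls averaged 1.01-fold and 1.08-fold the control level, with exact permutation p = 0.857 and 0.543.

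The dimness of rosuvastatin 3 was not even across the array. The 22518 tested probe sets were ranked by mean brightness and split into 10 equal bins, bin 1 being the dimmest and bin 10 the brightest, and each array was set against the control mean. In bin 1 the median difference was -0.30, -0.16, -0.66 and -0.12 on the log2 scale in rosuvastatin 1 to 4, against 0.07, -0.18, -0.15 and 0.28 in control 1 to 4. In bin 8 rosuvastatin 3 and 1 lay above control, at 0.18 and 0.09, and in bin 10 below it, at -0.09 and -0.04. In the fit the median log2 fold change was -0.34 in bin 1, 0.07 in bin 9 and -0.01 in bin 10. For several dim probe sets the value without rosuvastatin 3 is given beside the difference.

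**Figure D1:**
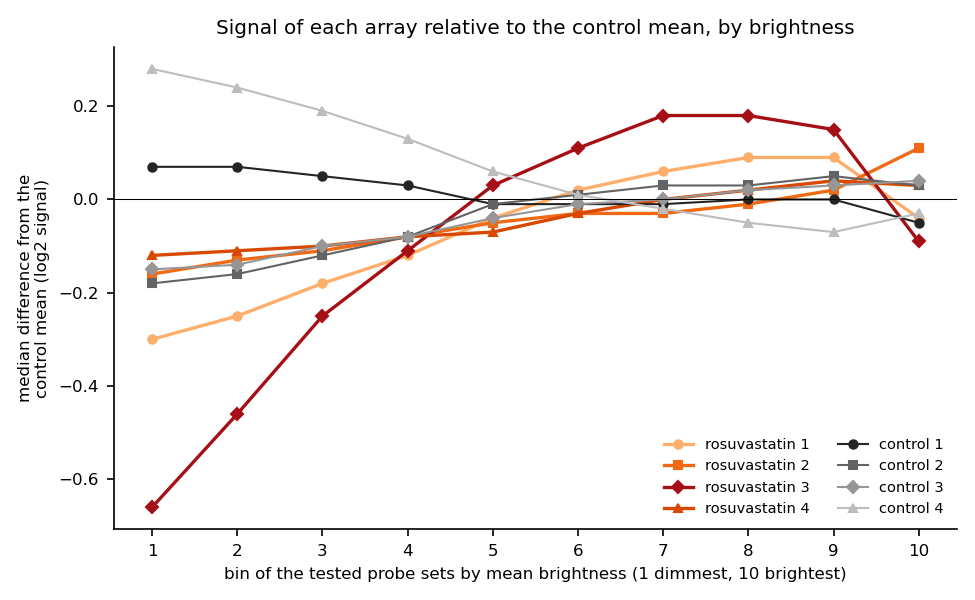
Median difference of each of the 8 arrays from the control mean (y axis, log2 signal) in each of 10 equal bins of the 22518 tested probe sets ranked by brightness (x axis). Rosuvastatin 3 runs from -0.66 in bin 1 to 0.18 in bin 8 and -0.09 in bin 10, and rosuvastatin 1 follows a shallower curve of the same shape.

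No probe set passed the test between rosuvastatin and control hearts. Limma, in a fit of all 20 arrays, called 0 of 22518 probe sets (0.0%) at an adjusted p under 0.05, and the smallest adjusted p was 0.121. At an unadjusted p under 0.05 there were 2469 probe sets (11.0%), 902 of them higher in rosuvastatin (4.01%) and 1567 lower (6.96%). The 2 directions lay at different brightness. In the dimmer 5 bins 160 were higher and 1305 lower, while in the brighter 5 bins 742 were higher and 262 lower. Without rosuvastatin 3 the dimmer 5 bins held 112 higher and 291 lower, and the brighter ones 513 and 112. Large differences were almost all lower: 2 probe sets lay more than 2-fold above control and 1115 more than 2-fold below. Without rosuvastatin 3 these counts were 4 and 41, and a fit with each array's median signal as a covariate gave 9 and 9. The half-width of the 95% interval of a log2 fold change had a median of 0.356, so differences smaller than that could generally not be told from 0 with 4 hearts a group. Taking each of 11229 genes by its brightest probe set, 53.6% lay higher in rosuvastatin, with a median log2 fold change of 0.0155.

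Tagln and Tpm2, genes of smooth muscle and actin filaments, were among the probe sets farthest above control. The 4 rosuvastatin and 4 control values did not overlap in 421 probe sets that were higher (1.87%) and 600 that were lower (2.66%). Of the probe sets with 1 gene symbol among these, the 100 with the smallest p belonged to 96 genes, 75 higher and 21 lower, and the 12 at each end are named here as values that did not pass. The highest was Tagln (transgelin), an actin-binding protein of smooth muscle. Its log2 signal was 9.69, 9.94, 10.09 and 10.08 in rosuvastatin 1 to 4, against 8.71, 8.57, 9.28 and 8.88 in control 1 to 4. Every rosuvastatin heart lay above every control heart, the log2 fold change being 1.09 (SE 0.26, adjusted p = 0.377). It was 1.04 without rosuvastatin 3 and 1.07 after quantile normalization. Tpm2, the beta tropomyosin of slow and smooth muscle, read 10.85, 10.90, 11.10 and 10.88 in rosuvastatin hearts, against 10.39, 9.86, 10.32 and 10.07 in control hearts. Its groups were apart as well (0.77, SE 0.17, adjusted p = 0.344), and its second brightest probe set gave 0.75. The only other probe set above 2-fold was that of Lce3c, a cornified envelope gene named after its values were seen, at 1.04 with overlapping groups.

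The other genes of the highest 12 had roles in transcription, signalling and glycosylation. Maf, a basic leucine zipper transcription factor, was higher by 0.89 (SE 0.19, adjusted p = 0.344). A probe set of Med1, the Mediator subunit that binds nuclear receptors, read 10.61, 10.31, 10.69 and 10.40 in rosuvastatin 1 to 4, against 10.18, 9.5, 9.52 and 9.60 in control 1 to 4. It had the smallest p of the comparison (0.81, SE 0.13, adjusted p = 0.121), and control 1 stood apart from the other control hearts toward the rosuvastatin values. The probe set of Prkaa2, the alpha 2 catalytic subunit of AMP-activated kinase, had the same layout. It read 8.97, 8.97, 8.90 and 8.96 in rosuvastatin hearts, against 8.79, 8.01, 8.01 and 7.87 in control hearts (0.78, SE 0.17, adjusted p = 0.344). Control 1 was the highest control in 10 of the 12 highest probe sets. The remaining 7 were Dbndd2 at 0.81, Mgat4a, a glycan-branching enzyme, at 0.74, Inka2, an inhibitor of a p21-activated kinase, at 0.71, Fam76a at 0.69, Cbx5, a heterochromatin protein, at 0.69, Gid4, a substrate receptor of a ubiquitin ligase, at 0.64 and Fam160b2 at 0.64.

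Among the lowest 12 probe sets 6 were in the dimmest 3 bins, and rosuvastatin 3 was the lowest rosuvastatin heart in 11. Unc13c, which primes synaptic vesicles, read 5.66, 6.58, 4.32 and 6.5 in rosuvastatin 1 to 4, against 7.52, 7.21, 7.30 and 7.71 in control 1 to 4. All rosuvastatin values were below all control values, with a log2 fold change of -1.67 (SE 0.44, adjusted p = 0.452), which was -1.19 without rosuvastatin 3 and -0.87 with that covariate. A probe set of Ldah, a hydrolase of lipid droplets, read 6.65, 7.47, 5.01 and 7.40 in rosuvastatin hearts, against 8.36, 7.88, 8.0 and 8.56 in control hearts. Its difference of -1.57 (SE 0.46) became -1.03 without rosuvastatin 3 and -0.70 with the covariate. The others were Trpm7, an ion channel with a kinase domain, at -1.52, Gria2, a glutamate receptor subunit, at -1.43, Pclo, a presynaptic scaffold, at -1.26 and Mepce, the capping enzyme of 7SK RNA, at -1.19. Bmf, a proapoptotic protein, lay at -1.14, Tet2, an oxidase of methylcytosine, at -1.06, and Timd4, a phosphatidylserine receptor of macrophages, at -0.98. Rbm39, a splicing factor, lay at -0.94, Epb41l3, a membrane skeleton protein, at -0.80 and Atp5c1, the gamma subunit of ATP synthase, at -0.75. Without rosuvastatin 3 these 10 lay between -0.96 and -0.55.

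**Figure D2:**
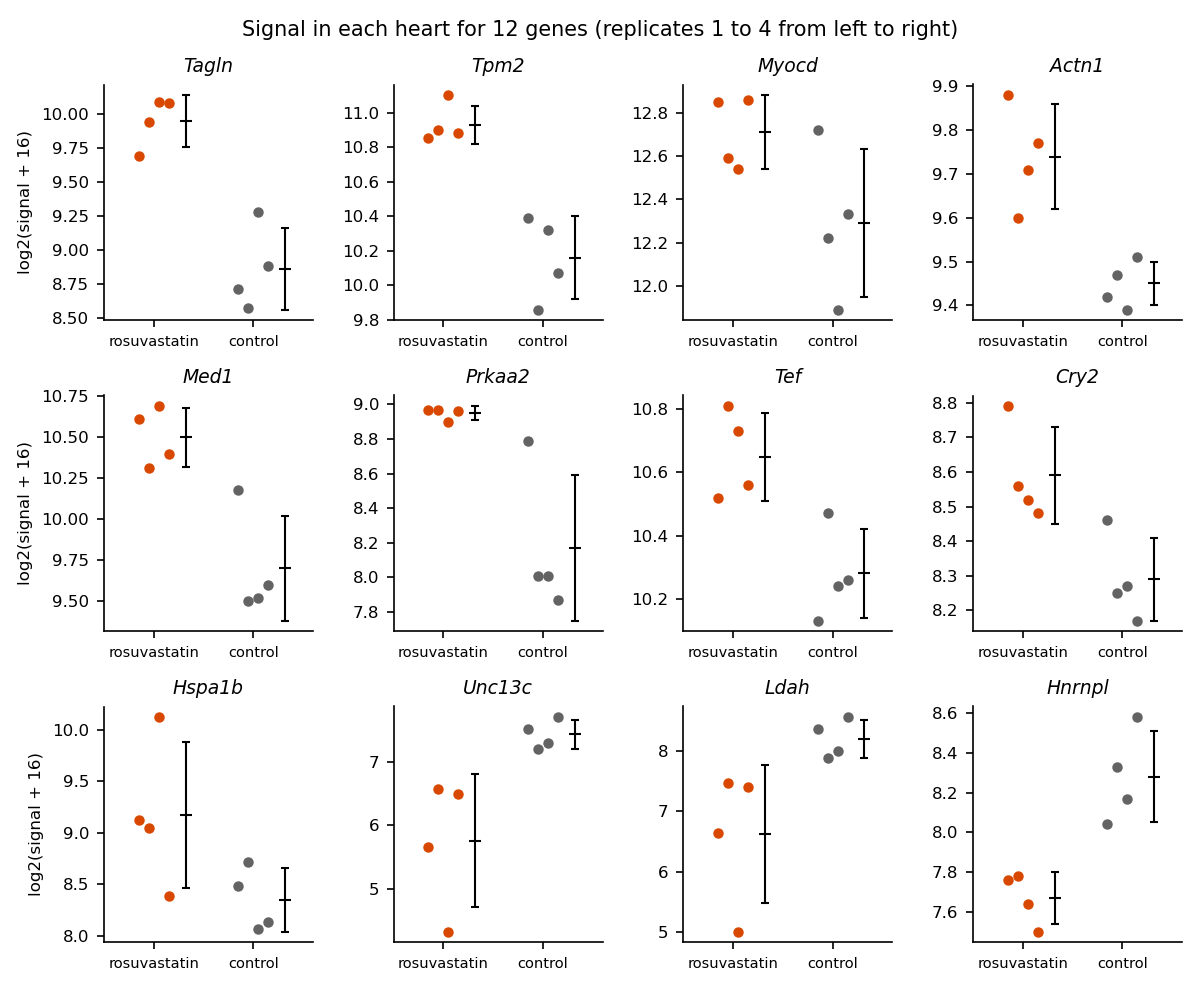
Log2(signal + 16) of 12 genes in each heart (points, replicates 1 to 4 from left to right; y axis), rosuvastatin left of control, with the mean and SD as bars. Tagln, Tpm2, Actn1, Tef and Cry2 separate the groups with all hearts on their own side, Med1 and Prkaa2 have control 1 near the rosuvastatin hearts, and Unc13c and Ldah have rosuvastatin 3 far below the rest.

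The brightest probe sets of the same genes mostly did not follow. Of the 24 named genes 17 had at least 1 more tested probe set, and the named one was the brightest in 1 of these 17 (Tpm2, 5.88%). Over all tested probe sets of genes with several, 38.0% are the brightest of their gene. For the other 16 genes the brightest probe set lay on the named side of 0 in 7, within 0.25 of 0 in 14, and at an unadjusted p under 0.05 in none. The brightest Prkaa2 probe set lay at -0.03, that of Med1 at -0.09, that of Cbx5 at 0.08 and that of Gid4 at -0.11. Those of Ldah, Tet2, Mepce and Rbm39 lay at 0.04, 0.06, 0.08 and 0.08 while their named probe sets lay at -1.57, -1.06, -1.19 and -0.94. These genes are therefore given as single probe sets and not as changes of the whole gene. Maf had its brightest probe set at 0.24, and Gria2 and Bmf had theirs at -0.74 and -0.55. Dimmer probe sets were mixed. The remaining one of Prkaa2 lay at 0.34 and that of Dbndd2 at 0.52, while those of Med1 lay at -0.16, -0.62 and -1.15. The next Rbm39 probe set lay at 0.05, and all dimmer ones between -0.97 and -0.14. The remaining ones ran from -0.18 to 0.50 for Gid4 and from -0.47 to 0.51 for Maf.

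**Figure D3:**
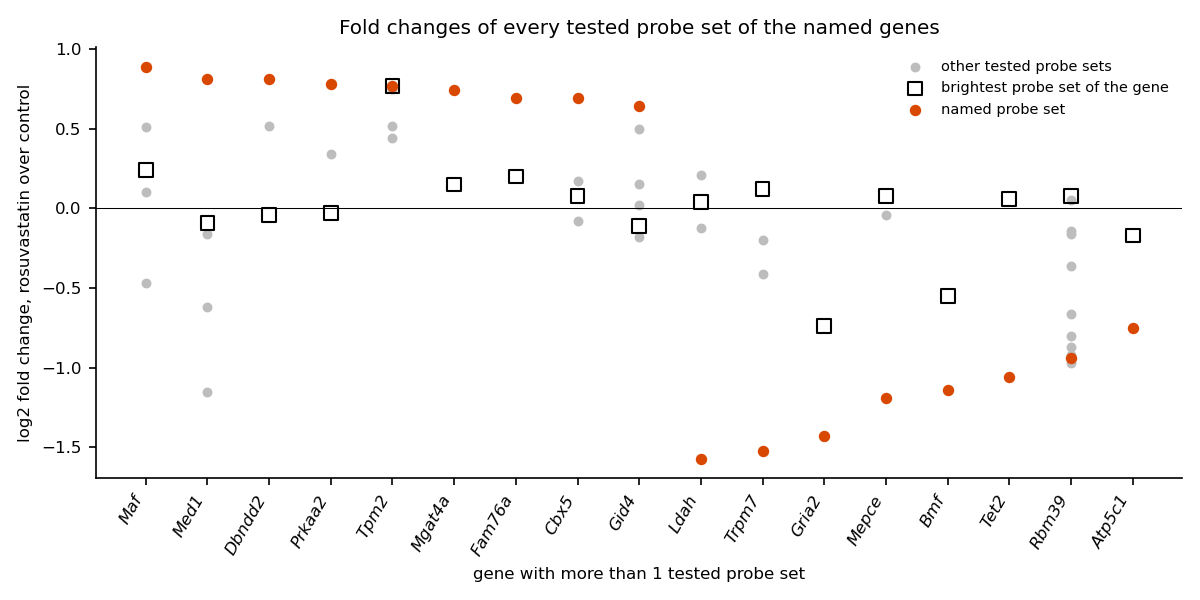
Log2 fold change of rosuvastatin over control (y axis) for every tested probe set of the 17 named genes that have more than 1 (x axis). Filled orange points are the named probe sets and open squares the brightest probe set of each gene, which sit within 0.25 of 0 for 14 of the 16 genes whose named probe set is another one.

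The genes that statins are known to move in liver were divided between higher and lower values in these hearts. Of the 15 measured cholesterol synthesis enzymes 6 were higher and 9 lower in rosuvastatin, with a median log2 fold change of -0.07, or 0.03 after quantile normalization. None was higher and 1 lower at an unadjusted p under 0.05, where 8.26% of all genes stood by their brightest probe set, 4.46% higher and 3.8% lower. That 1 was Idi1, the isopentenyl diphosphate isomerase, at 8.86, 9.07, 8.47 and 9.03 in rosuvastatin 1 to 4, against 9.12, 9.21, 9.07 and 9.24 in control 1 to 4. The groups touched at rosuvastatin 2 and control 3, which both read 9.07, and the difference was -0.30 (SE 0.13, adjusted p = 0.452), or -0.17 without rosuvastatin 3. A second Idi1 probe set lay at 0.02. Sc5d, a late desaturase of sterol synthesis, lay at -0.29 (SE 0.14) and in a second probe set at -0.04, Sqle, squalene epoxidase, at -0.26 (SE 0.23, or -0.37 without rosuvastatin 3) and Hsd17b7, a ketoreductase of the pathway, at 0.36 (SE 0.21).

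Hmgcs1 makes the substrate of the enzyme that statins block and is a classic SREBP target. Its promoter is shown because it is the one of the 12 cholesterol synthesis genes with a promoter in the table that holds the letters TCACCCCAC, those of a sterol regulatory element, on either strand. The 250 bases before its start were taken from RefSeq (GRCm38.p6, chr13:119690101-119690350, plus strand). Capitals mark TCACCCCAC and the 3 runs of ATTGG, which is CCAAT on the other strand, a box bound by the factor NF-Y.
Hmgcs1: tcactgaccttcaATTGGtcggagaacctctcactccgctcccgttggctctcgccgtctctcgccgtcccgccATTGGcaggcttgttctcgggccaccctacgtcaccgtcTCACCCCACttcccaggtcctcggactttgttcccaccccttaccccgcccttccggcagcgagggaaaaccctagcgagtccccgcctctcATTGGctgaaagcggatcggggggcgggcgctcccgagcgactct
Over 32851 promoters of the same length, 0.496% held TCACCCCAC and 33.8% held CCAAT on either strand. Hmgcs1 read 12.93, 12.97, 12.87 and 12.98 in rosuvastatin hearts, against 12.90, 12.69, 12.92 and 12.90 in control hearts. The 2 groups overlapped, and the 95% interval of the difference ran from -0.14 to 0.31. Srebf1, which encodes the lipogenic SREBP, lay at 8.42, 8.73, 8.71 and 8.62 in rosuvastatin hearts, against 9.07, 8.64, 8.95 and 8.94 in control hearts. Its difference was -0.28 (SE 0.12, adjusted p = 0.452), and only control 2 lay within the rosuvastatin range. The 15 genes of sterol sensing, uptake and export split 8 to 7 with a median of 0.04, among them Abca1, the cholesterol exporter, at -0.20 (SE 0.13) and Lpin1, a phosphatidate phosphatase, at -0.17 (SE 0.10).

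Among the branches of the mevalonate pathway, few prenylation and coenzyme Q genes were higher at an unadjusted p under 0.05, where 4.46% of all genes were. Of 17 measured prenylation enzymes and prenylated GTPases 13 lay higher (median 0.06), where 53.6% of all genes did, 1 of them at an unadjusted p under 0.05. This was Rhob, a short-lived GTPase that is farnesylated or geranylgeranylated, at 12.06, 11.99, 11.93 and 11.83 in rosuvastatin 1 to 4, against 11.68, 11.85, 11.59 and 11.54 in control 1 to 4. Only rosuvastatin 4 lay below the highest control, and the difference was 0.29 (SE 0.09, adjusted p = 0.452). Pggt1b, a subunit of the enzyme that attaches geranylgeranyl groups, and Icmt, the methyltransferase of prenylated proteins, lay at 0.18 (SE 0.09) and 0.19 (SE 0.10). Of 11 coenzyme Q genes 6 lay higher (median 0.01), a share near that of all genes, and 4 with the median signal as covariate (median -0.07). The lipid-binding proteins Coq10b and Coq10a, thought to carry coenzyme Q, were the 2 at an unadjusted p under 0.05, higher by 0.46 (SE 0.18) and 0.25 (SE 0.11). Without rosuvastatin 3 they lay at 0.55 and 0.12, and a second Coq10b probe set lay at 0.13. The 12 endothelial genes linked to statins split 5 to 7 (median -0.01), with Nos3, the endothelial nitric oxide synthase, at -0.12 (SE 0.17), Klf2, a shear-responsive factor, at 0.24 (SE 0.16) and Thbd, thrombomodulin, at 0.18 (SE 0.10). Icam1 lay at 0.33 (SE 0.20) and Selp, the lowest of the list, at -0.86 (SE 0.56), or -0.72 without rosuvastatin 3.

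Genes of oxidative metabolism and of the sarcomere lay below control in the group mean, with the 4 rosuvastatin hearts spread widely around it. Of 33 measured complex I genes 28 lay lower (median -0.10), as did 22 of 24 genes of complexes II to IV (-0.15), 20 of 21 of ATP synthase and adenine nucleotide exchange (-0.13), 14 of 17 of the tricarboxylic acid cycle (-0.12) and 19 of 20 of fatty acid oxidation (-0.08). Over all 11229 genes, by their brightest probe set, 46.4% lay lower. None of the genes in these 5 lists had an unadjusted p under 0.05. Of 21 sarcomere genes 17 lay lower (-0.11), and the 1 at an unadjusted p under 0.05 was Ttn, titin, at -0.26 (SE 0.12, adjusted p = 0.452).

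The spread between hearts was larger than these group differences. The mean of the ATP synthase genes relative to control was -0.31, 0.33, -0.54 and -0.03 in rosuvastatin 1 to 4, against -0.17, 0.03, 0.06 and 0.09 in control 1 to 4. Rosuvastatin 2 lay above every control heart and rosuvastatin 1 and 3 below every one. The 19 cardiomyocyte markers did the same, at -0.34, 0.32, -0.56 and -0.02 in rosuvastatin hearts, against -0.19, 0.07, 0.05 and 0.08 in control hearts. So did the brightest 1% of probe sets as a whole, 225 in number, with medians of -0.31, 0.34, -0.57 and -0.01 in rosuvastatin hearts, against -0.12, 0.03, 0.03 and 0.06 in control hearts. The part that this brightness pattern has in the lower values of these genes was not tested. Without rosuvastatin 3 the medians were 0.01 for complex I, -0.02 for complexes II to IV, -0.02 for ATP synthase, 0.01 for the sarcomere and -0.01 for cardiomyocyte markers. After quantile normalization they were 0.01, -0.02, 0.01, 0.01 and 0.00. With the median signal as covariate the direction turned: the medians were 0.03, 0.06, 0.07, 0.08 and 0.08, with 22 of 33, 16 of 24, 19 of 21, 18 of 21 and 16 of 19 genes higher. Myh6, the alpha myosin heavy chain of the adult mouse ventricle, read 14.72, 15.58, 14.39 and 15.10 in rosuvastatin hearts, against 15.01, 15.15, 15.12 and 15.46 in control hearts.

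**Figure D4:**
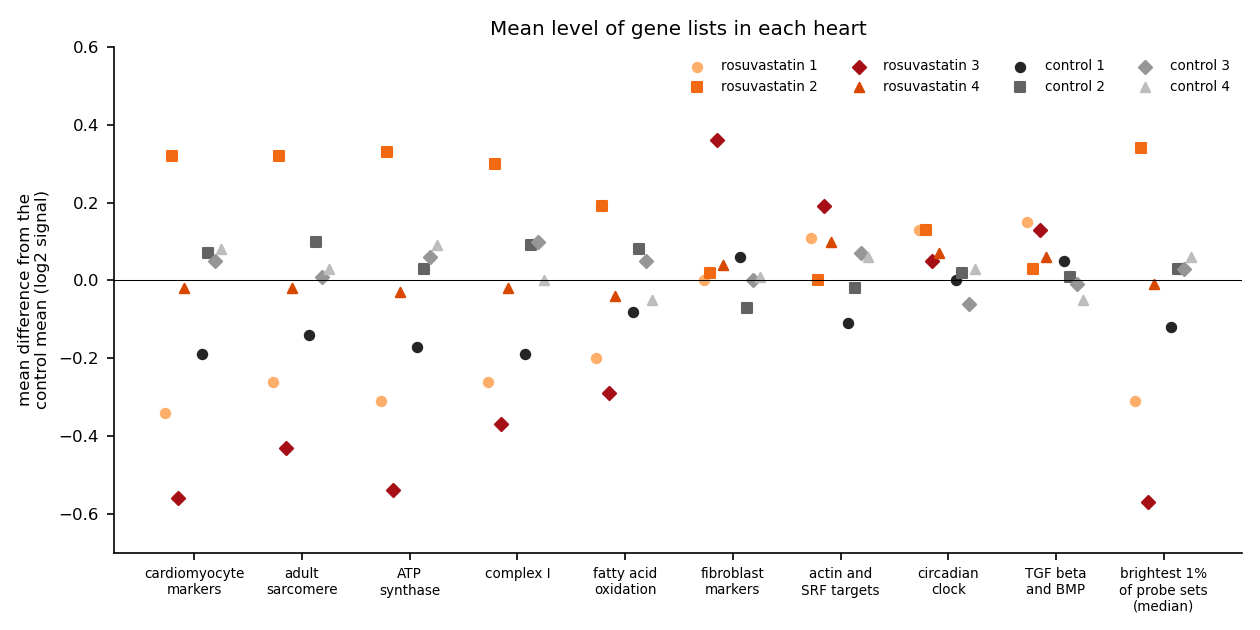
Mean log2 signal of 9 gene lists relative to the control mean (y axis) in each heart, with rosuvastatin 1 to 4 left of control 1 to 4, and the median of the brightest 1% of probe sets at the right. Rosuvastatin 2 is high and rosuvastatin 1 and 3 are low in the cardiomyocyte, sarcomere and mitochondrial lists and in the brightest 1% alike.

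Among markers of other cell types, fibroblast markers were high in rosuvastatin 3, while the mean of 5 blood markers was low in all 4 rosuvastatin hearts. Whether a bulk heart holds fewer cells of a type or less RNA per cell cannot be told apart. Of 17 fibroblast markers 12 lay higher (median 0.11), and their mean was 0.00, 0.02, 0.36 and 0.04 in rosuvastatin 1 to 4, against 0.06, -0.07, 0.00 and 0.01 in control 1 to 4. Only rosuvastatin 3 lay above the controls, and the median was 0.01 without it. Endothelial markers lay higher in 11 of 15 (median 0.08, or 0.00 without rosuvastatin 3). Flt1, a receptor of vascular endothelial growth factor, was higher by 0.29 (SE 0.12; other probe sets 0.06 and 0.32), and Eng, endoglin, by 0.36 (SE 0.15; second probe set 0.14). Macrophage markers lay higher in 9 of 15 (median 0.08), and Ccr2, a receptor of recruited monocytes, lay at -0.73 (SE 0.32), or -0.52 without rosuvastatin 3. The 5 erythroid and blood markers measured were Alas2, Ppbp, Pf4, S100a8 and S100a9. They lay lower in all 5 (median -0.32), none of them at an unadjusted p under 0.05. Their median was -0.43 without rosuvastatin 3 and -0.23 after quantile normalization, with 1 of 5 higher in each setting. Their mean was -0.30, -0.22, -0.29 and -0.36 in rosuvastatin 1 to 4, against -0.07, 0.08, 0.13 and -0.15 in control 1 to 4, without overlap. Single members did not separate alike: Alas2 lay at -0.48 (SE 0.28), while Pf4 averaged 11.08 in rosuvastatin and 11.10 in control hearts. Ppbp lay below the control range of 6.55 to 7.19 only in rosuvastatin 3, at 5.63. Slc4a1, below the filter on dim probe sets, averaged 5.91 in rosuvastatin and 5.45 in control hearts.

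Among the 8 hearts, rosuvastatin 3 also stood apart in the atrial light chain genes Myl4 and Myl7. Myl4, the atrial light chain of myosin, read 9.20, 8.90, 11.58 and 9.01 in rosuvastatin 1 to 4, against 10.30, 8.72, 8.66 and 9.30 in control 1 to 4. Myl7, another atrial light chain, was below the filter on dim probe sets and read 6.20, 4.67, 10.32 and 4.30 in rosuvastatin hearts, against 8.29, 4.26, 6.09 and 5.88 in control hearts. Rosuvastatin 3 was the highest of the 8 in both genes and control 1 the next. Hearts of the other statins reached 11.73 for Myl4 and 10.29 for Myl7, so such values were not particular to rosuvastatin 3. Of 8 atrial and conduction markers examined, out of 9 on the array, rosuvastatin 3 lay above all control hearts in 3 and below all in 3. The 3 above were Myl4, Myl7 and Nppa. The 3 below were Sln, Bmp10 and Gja5, at 4.97, 4.07 and 4.21. These were under that filter, as Myl7 was, and rosuvastatin 3 read low in general among dim probe sets. Tbx3, which passed the filter, read 9.07 in rosuvastatin 3, inside the control range of 8.48 to 9.15. Nppa, the atrial natriuretic peptide, which stressed ventricles make as well, read 13.12 in rosuvastatin 3, above the 12.48 to 13.07 of the control hearts. Rosuvastatin 1 read 13.04, and hearts of the other statins reached 13.56. Acta1, the skeletal alpha actin that stressed hearts express, read 11.52, 11.45, 13.19 and 11.11 in rosuvastatin hearts, against 12.03, 11.92, 11.84 and 11.63 in control hearts. The 11 measured fetal and stress genes of the heart had a median of 0.12, which was -0.03 without rosuvastatin 3 and -0.10 with the covariate. Nppb, the B-type natriuretic peptide, lay at 0.14 (SE 0.21) and Myh7, the beta myosin heavy chain, at -0.05 (SE 0.18).

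Smooth muscle markers and actin genes held the largest difference above control, in Tagln, beside many smaller ones. Of the 12 measured smooth muscle and pericyte markers 9 lay higher (median 0.07), where 53.6% of all genes did, and 1 of them, Tagln, had an unadjusted p under 0.05. Without rosuvastatin 3 the count was 5 of 12 (median -0.02), and with the covariate 6 of 12 (median -0.03). Acta2, the smooth muscle actin, lay between 12.87 and 13.14 in the 4 rosuvastatin hearts, against 12.05, 11.79, 13.12 and 13.13 in control hearts. Its control hearts fell in 2 pairs, so the difference of 0.47 carried an SE of 0.28. Mylk, the myosin light chain kinase, lay at 0.33 (SE 0.16). Of 21 genes of the actin cytoskeleton and serum response factor 14 lay higher (median 0.08), or 12 with the covariate (median 0.03). Tpm2, Myocd and Actn1 were higher at an unadjusted p under 0.05, as were 4.46% of all genes. Myocd encodes myocardin, a coactivator of serum response factor that drives smooth muscle genes, and read 12.85, 12.59, 12.54 and 12.86 in rosuvastatin hearts, against 12.72, 12.22, 11.89 and 12.33 in control hearts. Control 1 overlapped the rosuvastatin hearts, the difference was 0.42 (SE 0.14, adjusted p = 0.452), and a second probe set gave 0.45. Actn1, a cytoskeletal alpha actinin, read 9.88, 9.60, 9.71 and 9.77 in rosuvastatin hearts, against 9.42, 9.47, 9.39 and 9.51 in control hearts, with no overlap (0.29, SE 0.13). Ccn2, a matrix protein also called connective tissue growth factor, lay at 0.49 (SE 0.24).

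Of the circadian clock, the output factor Tef and the repressor Cry2 were higher in every rosuvastatin heart than in any control heart. The circadian clock is a feedback loop in which CLOCK and BMAL1 drive their own repressors and a set of output factors, and the labels do not give the hour of sampling. Of 15 measured clock genes 9 lay higher (median 0.07), near the 53.6% of all genes. At an unadjusted p under 0.05 there were 4 higher, where 4.46% of all genes were, and none lower. Tef, an output factor of the PAR leucine zipper family, read 10.52, 10.81, 10.73 and 10.56 in rosuvastatin 1 to 4, against 10.13, 10.47, 10.24 and 10.26 in control 1 to 4. Cry2, a repressor of the loop, read 8.79, 8.56, 8.52 and 8.48 in rosuvastatin hearts, against 8.46, 8.25, 8.27 and 8.17 in control hearts. Both genes had no overlap, with differences of 0.38 (SE 0.10) and 0.30 (SE 0.11), but a second, dimmer Tef probe set lay on the other side at -0.32 (SE 0.30). Nr1d2, a nuclear receptor that represses the loop, was higher by 0.29 (SE 0.11). Dbp, the relative of Tef, was named after its values were seen: it read 10.98, 12.30, 10.71 and 11.82 in rosuvastatin hearts, against 10.18, 10.52, 10.53 and 11.14 in control hearts (0.86, SE 0.34). Its rosuvastatin hearts were spread over a wider range than the controls, and 2 of them overlapped control 4. All 4 had an adjusted p of 0.452, and without rosuvastatin 3 they lay at 0.35, 0.32, 0.37 and 1.11.

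The promoters of Tef are shown because it had the smallest p of the clock genes and both of its starts hold the E-box CACGTG, the palindrome bound by CLOCK and BMAL1. They were taken from RefSeq (GRCm38.p6, plus strand) as the 250 bases before each start, at chr15:81802423-81802672 and chr15:81811164-81811413, with capitals for the E-box.
Tef promoter 1: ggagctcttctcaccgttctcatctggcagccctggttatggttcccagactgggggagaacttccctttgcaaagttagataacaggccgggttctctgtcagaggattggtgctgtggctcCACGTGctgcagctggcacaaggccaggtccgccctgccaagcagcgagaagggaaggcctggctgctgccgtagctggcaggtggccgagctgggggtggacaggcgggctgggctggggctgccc
Tef promoter 2: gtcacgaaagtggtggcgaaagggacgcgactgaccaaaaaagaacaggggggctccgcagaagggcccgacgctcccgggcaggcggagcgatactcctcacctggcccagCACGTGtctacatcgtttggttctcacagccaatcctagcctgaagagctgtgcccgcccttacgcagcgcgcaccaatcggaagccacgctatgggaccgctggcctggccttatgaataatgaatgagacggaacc
Of the 14 measured clock genes with a promoter in the table, Cry1, Per1 and Tef held CACGTG in this window, and 6.02% of all 32851 promoters did. Such a match describes the letters and not binding.

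Signalling and stress genes showed single members above control. Of 24 genes of TGF beta and BMP signalling 18 lay higher (median 0.09, and 0.10 without rosuvastatin 3), where 53.6% of all genes did. With the covariate 14 lay higher (median 0.06). At an unadjusted p under 0.05 there were 3 higher, where 4.46% of all genes were, and none lower. Smad7, the feedback inhibitor of the pathway, read 11.28, 11.01, 10.81 and 10.85 in rosuvastatin hearts, against 10.84, 10.17, 10.33 and 10.50 in control hearts (0.53, SE 0.22), and a second probe set gave 0.48. Tgfbr1, a receptor, and Smad4, the common Smad, did not overlap between groups but lay close, at 0.21 (SE 0.09) and 0.17 (SE 0.08). A second Tgfbr1 probe set lay at -0.69 (SE 0.38), and the other Smad4 probe sets at 0.40 and 0.15. Of 15 immediate early genes 11 lay higher (median 0.17), where 53.6% of all genes did. Among these 11 were Fosl2 at 0.43 (SE 0.14), Nr4a2 at 0.56 (SE 0.23) and Ier3 at 0.46 (SE 0.20). The other Nr4a2 probe sets lay at -0.55 (SE 0.41) and -0.40 (SE 0.32), opposite to the brightest. Of 15 heat shock chaperones 7 lay higher (median -0.01), 3 of them at an unadjusted p under 0.05, where 4.46% of all genes were higher. Hspa1b, an inducible Hsp70 gene with a near-identical neighbour that its probes could share, read 9.12, 9.05, 10.12 and 8.39 in rosuvastatin hearts, against 8.48, 8.72, 8.07 and 8.13 in control hearts. Rosuvastatin 3 was its highest heart, and the difference of 0.82 (SE 0.31) was 0.50 without it. The Hsp40 proteins Dnajb1 and Dnaja1 lay at 0.36 (SE 0.16) and 0.29 (SE 0.14), and a second Dnajb1 probe set at -0.10.

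Mediator and splicing genes held members on both sides of control. Of 30 Mediator subunits 20 lay higher (median 0.06), where 53.6% of all genes did, but 13 with the covariate (median -0.03). At an unadjusted p under 0.05 there were 4 higher, where 4.46% of all genes were. Med13l, of the kinase module, read 11.40, 11.17, 11.64 and 11.36 in rosuvastatin hearts, against 11.23, 10.69, 10.88 and 10.55 in control hearts (0.55, SE 0.13, adjusted p = 0.377). Control 1 lay within the rosuvastatin range, and a second Med13l probe set lay at 0.02. Cdk8, the kinase of that module, was apart from control in every heart, at 10.27, 9.80, 10.38 and 9.85 in rosuvastatin 1 to 4, against 9.72, 9.60, 9.57 and 9.65 in control 1 to 4 (0.44, SE 0.12). Med26 lay at 0.31 (SE 0.13), and Med19, named after its values were seen, at 0.17 (SE 0.07). Of 29 splicing factors 20 lay higher (median 0.11), with Srsf1 at 0.32 (SE 0.10) and Celf2 at 0.19 (SE 0.08), whose other probe sets ran from -0.98 to 0.16. Hnrnpl lay on the other side, at 7.76, 7.78, 7.64 and 7.5 in rosuvastatin hearts, against 8.04, 8.33, 8.17 and 8.58 in control hearts. Its groups did not overlap, the difference was -0.61 (SE 0.16, adjusted p = 0.452), and it was -0.60 without rosuvastatin 3. Of the 13 measured long noncoding RNAs 7 lay higher, with Tug1 at 0.43 (SE 0.12), 0.52 in a second probe set and -0.02 in the third, and Malat1 at 0.34 (SE 0.18), where the other 6 Malat1 probe sets lay between -0.34 and 0.00. The lowest of the list was Kcnq1ot1 at -0.95 (SE 0.46), with its other probe sets at -0.93 and -0.39.

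In fuel and growth signalling the largest difference was that of Angptl4, an inhibitor of lipoprotein lipase raised by fasting. It read 6.97, 7.60, 6.85 and 7.97 in rosuvastatin hearts, against 9.17, 8.99, 7.30 and 8.12 in control hearts. Only control 3 lay within the rosuvastatin range, the difference was -1.05 (SE 0.43, adjusted p = 0.452), and it was -0.88 without rosuvastatin 3. The 12 measured genes of the fasting response lay lower in 9 (median -0.17, or -0.07 without rosuvastatin 3), where 46.4% of all genes did. Their mean was -0.19, -0.01, -0.28 and -0.22 in rosuvastatin 1 to 4, against 0.23, 0.21, -0.22 and -0.22 in control 1 to 4. Control 3 and 4 thus lay within the rosuvastatin range. Acot1, an acyl-CoA thioesterase, lay at -0.37 (SE 0.22). Of 16 genes of glycolysis and glucose uptake 11 lay lower (median -0.05). Yet the 2 at an unadjusted p under 0.05 were higher, as were 4.46% of all genes. These 2 were Pgam1, a phosphoglycerate mutase, at 0.39 (SE 0.13) and Slc2a4, the insulin-responsive glucose transporter, at 0.18 (SE 0.08). A second Slc2a4 probe set lay at -0.16. Rptor, the scaffold of mTOR complex 1, read 8.53, 8.47, 8.53 and 8.44 in rosuvastatin hearts, against 8.73, 8.91, 8.84 and 8.76 in control hearts. The groups were tight and apart (-0.32, SE 0.11, adjusted p = 0.452). The other 18 measured genes of AMP-activated kinase and mTOR had no member at an unadjusted p under 0.05 by their brightest probe set.

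Matrix, vessel, ion channel and immune genes held a few members at an unadjusted p under 0.05, where 8.26% of all genes stood. Timp3, an inhibitor of matrix metalloproteinases, read 11.22, 11.22, 11.40 and 11.24 in rosuvastatin hearts, against 11.18, 11.09, 10.98 and 10.73 in control hearts (0.27, SE 0.11), without overlap. It was the 1 of 28 matrix genes at an unadjusted p under 0.05, while Col4a1, a basement membrane collagen, lay at -0.20 (SE 0.10). Hif1a, the oxygen-regulated factor, read 13.29, 13.29, 13.01 and 13.22 in rosuvastatin hearts, against 13.45, 13.60, 13.50 and 13.30 in control hearts, also without overlap (-0.26, SE 0.09). Kcnj5, a subunit of the acetylcholine-gated potassium channel, lay at 0.20 (SE 0.09), 1 of 18 channel genes at an unadjusted p under 0.05. Of 15 genes of antigen presentation 10 lay higher (median 0.06), with the class I chain H2-K1 at 0.26 (SE 0.12), and of 18 interferon-stimulated genes 11, with Gbp3 at 0.40 (SE 0.16) and Ifi35 at 0.28 (SE 0.12; other probe sets -0.03 and 0.01). With the covariate 5 of 15 and 5 of 18 genes of these 2 lists lay higher. Nfkbia, the inhibitor of NF-kappa B, lay at 0.29 (SE 0.11). Of 18 cell cycle genes, Ccnd1, cyclin D1, lay higher by 0.40 (SE 0.14), and its other probe sets at -0.01 and 0.21. The brightest probe sets of the proliferation markers Top2a and Mki67 lay at -1.16 (SE 0.51) and -0.66 (SE 0.30), with rosuvastatin 3 at 5.18 and 7.06 below all other hearts, and at -0.49 and -0.35 without it. A second Top2a probe set lay at 0.12 (SE 0.21).

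**Figure D5:**
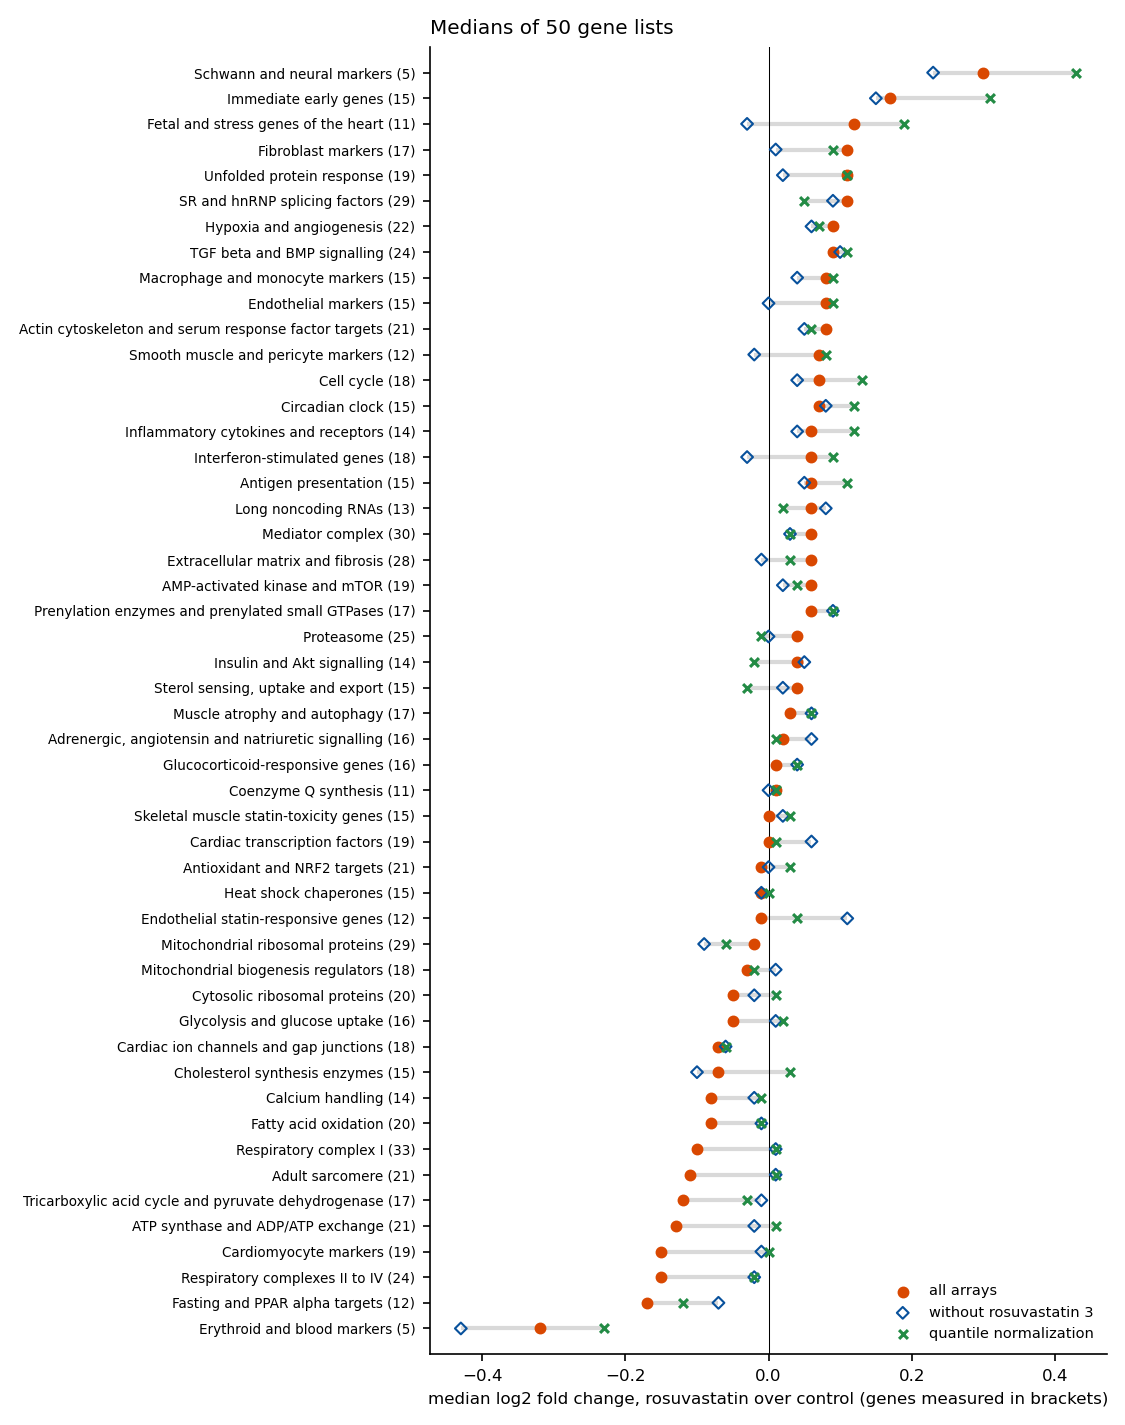
Median log2 fold change of rosuvastatin over control (x axis) of the 50 lists with at least 5 measured genes, as reported, without rosuvastatin 3 and after quantile normalization. The lists of respiration, ATP synthase, fatty acid oxidation, the tricarboxylic acid cycle, the sarcomere and cardiomyocyte markers lie between -0.15 and -0.08 as reported and within 0.03 of 0 in the other 2 settings, while TGF beta and BMP signalling lies between 0.09 and 0.11.

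Rosuvastatin hearts were also set against the mean of the 12 hearts of the other statins, a comparison that uses no control array but in which the doses differ: 4.5 mg/kg/day pitavastatin, 21.0 mg/kg/day pravastatin and 11.4 mg/kg/day atorvastatin. Limma called 0 of 22518 probe sets (0.0%), with a smallest adjusted p of 0.34. At an unadjusted p under 0.05 stood 7.91% of them, 541 higher (2.4%) and 1241 lower (5.51%), and by the brightest probe set of each gene 3.15% were higher and 3.19% lower. Of the 50 smallest p, the probe sets highest in rosuvastatin were those of Stbd1, a glycogen-binding protein, at 0.66, Atp10a, a lipid flippase, at 0.62, Itgbl1 at 0.58, Fam160b2 at 0.43 and Synpo, an actin-associated protein, at 0.43. Itgbl1 read 9.33, 9.46, 9.55 and 9.20 in rosuvastatin hearts, against 9.19, 8.96, 8.59 and 8.57 in control hearts, which left it apart from control as well (0.56, SE 0.19). The lowest were Fam170b at -1.24, Arel1, a ubiquitin ligase, at -0.81, AI662270 at -0.64, Pik3ip1, an inhibitor of phosphatidylinositol 3-kinase, at -0.63 and Pank1, a pantothenate kinase, at -0.57. All of these 5 are in the dimmest 4 bins, and those of Synpo, Arel1, AI662270, Pik3ip1 and Pank1 are not the brightest of their gene. Tagln lay at 0.52 (SE 0.21) and Tpm2 at 0.41 against the other statins, Tef at 0.18 and Hspa1b at 0.80. Tagln averaged 9.95 with rosuvastatin and 9.76 with pitavastatin, 9.24 with pravastatin and 9.28 with atorvastatin.

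Leaving out control 1 changed the count of calls. Without it limma called 17 probe sets of 16 genes, all of them higher in rosuvastatin, and in all 17 control 1 lay above the other 3 control hearts. Without both rosuvastatin 3 and control 1 there were 16 calls, and with array weights, which gave rosuvastatin 3 and control 1 the weights 0.2627 and 0.4833, there were 12. Probe sets of 8 genes were called in all 3 settings: Med1, Pum2, Ryr2, Khsrp, Prkaa2, Gsk3b, Atxn1 and Psmd11. All 3 settings drop control 1 or give it less weight, so their agreement is not independent support. Med1 had the smallest adjusted p in each of the 3 settings (0.000482, 0.0021 and 0.00195). Pum2, a repressor of messenger RNA, lay at 0.59 (SE 0.10) with all arrays and at 0.68 without control 1. The probe set of Ryr2, the calcium release channel of the sarcoplasmic reticulum, lay at 0.67 and 0.89, whereas the brightest Ryr2 probe set lay at -0.13 with all arrays. That of Gsk3b, a kinase inhibited by insulin signalling, lay at 0.58 and 0.77, and the brightest at -0.01. Of the 17 probe sets called without control 1, 16 belong to genes with another tested probe set, and 3 are the brightest of their gene.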

How the data were processed

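Total RNA of 20 left ventricles was measured on Affymetrix mouse genome arrays, 1 mouse per array. The deposited values are MAS5 signal intensity on a linear scale, per the submitters' processing notes, and each array had a trimmed mean of 500.0. Normalization beyond this is not given in the sources used here. The 64 control probe sets named AFFX were left out of the 45101, and log2(signal + 16) was taken, which understates changes of dim probe sets. Tests were run on the 22518 probe sets whose signal averaged at least 81.8 over the 20 arrays, the upper 50%.

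Limma 3.58.1 (R 4.3.3) fitted 1 mean per group to all 20 arrays, with an intensity trend in the variance and Benjamini-Hochberg adjustment over all tested probe sets, and calls were made at 0.05. Array measures were compared by two-sided exact permutation. A gene's level is its brightest probe set. Symbols came from the platform annotation, in which 34945 probe sets had 1 symbol, 932 several and 9160 none, and 34741 matched a RefSeq entry. The tests were also run on simulated data with independent noise of the same size on every array. Such data lack the brightness differences between arrays described above, so they do not address them.

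The comparison, the 55 gene lists and the naming rule were chosen with earlier results of these data known. Named genes were the 12 highest and 12 lowest among the 100 smallest p without overlap and with 1 symbol, up to 3 genes per list by p, a fixed set with the natriuretic peptides and myosins, probe sets called under an alternative and the 5 at each end against the other statins. No animal identity beyond 1 array per mouse is given. Python 3.11.15 with numpy 2.4.6, pandas 2.3.3, scipy 1.17.1 and matplotlib 3.10.9 was used for the rest. Under 23 other settings, 2 of them added after the data were seen, normalization, filter, pseudocount, weights, covariate and arrays were varied.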

Additional observations from a re-analysis of the deposited data

Results flagged for a closer look

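In 11 of 240 groups of 4 hearts examined, 1 heart lay far from the other 3 relative to the range of its group, and chance gives about 1 in 20. Of these, 3 are rosuvastatin 3 and 4 are control 1.

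Rosuvastatin 3 read 11.58 for Myl4, the atrial myosin light chain, against 8.90 to 9.20 in the other rosuvastatin hearts. It read 11.40 for Timp3, against 11.22 to 11.24, and 8.90 for the named Prkaa2 probe set, against 8.96 to 8.97, a very small distance in a tight group. Rosuvastatin 2 read 8.55 for the named Cbx5 probe set, against 8.98 to 9.07, and 13.25 for Sgk1, against 12.80 to 12.85.

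Control 1 read 10.18 for the named Med1 probe set, against 9.5 to 9.60 in the other control hearts, 8.79 for that of Prkaa2, against 7.87 to 8.01, 10.30 for Tgfbr1, against 10.12 to 10.15, and 11.52 for Nr3c1, against 11.27 to 11.31. Control 2 was low for Hmgcs1, at 12.69, against 12.90 to 12.92. Control 3 was low for Stbd1, at 6.82, against 7.51 to 7.59.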

How the results depend on the processing

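The count of calls was 0 under all settings except 3: 17 without control 1, 16 without rosuvastatin 3 and control 1, and 12 with array weights. Leaving out each array in turn gave 0 to 17 calls, 599 to 1252 probe sets higher and 403 to 2526 lower at an unadjusted p under 0.05, against 902 and 1567 as reported. The lower count was 403 without rosuvastatin 3, 474 without control 4, 938 without control 1 and 2526 without rosuvastatin 4, and the higher count was 599 without control 4. The lower count was 1030 after quantile normalization, 3651 with no filter, 467 in the brightest 30%, 487 with 1 probe set per gene, 882 with the median signal as a covariate and 778 without rosuvastatin 3 and control 1. The higher count was 599 with only the rosuvastatin and control arrays and 500 with 1 probe set per gene. The settings added after the data were seen gave 372 higher and 358 lower without rosuvastatin 1 and 3, and 2382 lower without atorvastatin 2. Lists with a median beyond 0.1 numbered 11 as reported, 5 after quantile normalization, 17 with array weights, 6 with the covariate and 5 to 19 leaving out each array. The log2 difference of the 18S probe set was 0.38 to 0.66 leaving out each array, each with an exact permutation p of 0.0571, the smallest that 3 against 4 arrays allow. That of the Gapdh ratio was -0.05 to 0.05. Of 116 named probe sets 108 never changed direction. Many of them were picked from these same arrays for a small p or separated groups, so a kept direction is no independent support. Nppb became -0.04 with array weights, -0.15 with the covariate, -0.07 without control 1, -0.17 without rosuvastatin 3 and control 1 and -0.07 without rosuvastatin 1 and 3. Myh7 became 0.00 after centring, 0.02 without rosuvastatin 1, 0.07 without control 2 and 0.02 without rosuvastatin 1 and 3. Myl4 became -0.03 with the covariate, -0.21 without rosuvastatin 3 and -0.29 without rosuvastatin 1 and 3, and Myh6 0.08 with the covariate and 0.16 without rosuvastatin 1 and 3. Nppa became -0.08 with the covariate, Sqle and Nos3 0.03 after quantile normalization, and Atp10a -0.01 without rosuvastatin 4 and -0.02 without control 2. Leaving out each array gave -0.21 to 0.78 for Myl4, -0.13 to 0.07 for Myh7, -0.07 to 0.28 for Nppb and -0.02 to 0.18 for Atp10a. The cause was not tested for any of these. The labels do not say whether equal replicate numbers mark paired hearts. The correlations of deviations were 0.31, -0.24, 0.47 and 0.51 for replicates 1 to 4. Only rosuvastatin 1 and 4 matched their own number best. With the replicate block limma gave 0 calls, 1097 higher and 2237 lower. The smallest adjusted p was then 0.0646 in limma, against 0.121 as reported. The 4 hearts a group, and the low signal of dim probe sets on rosuvastatin 3, limit what could be detected.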

Other observations

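Lists not described above held single members at an unadjusted p under 0.05, where 8.26% of all genes stood. All of these members had an adjusted p of 0.452 in limma. Of 19 genes of the unfolded protein response 12 lay higher (median 0.11, or 0.02 without rosuvastatin 3), with Sel1l, an adaptor in the degradation of misfolded proteins, at 0.23 (SE 0.10), and its other probe sets at -0.09 and -0.11. Of 16 glucocorticoid-responsive genes 9 lay higher (median 0.01), with Nr3c1, the glucocorticoid receptor, at 0.22 (SE 0.10), its other probe sets running from -0.33 to 0.17, and Sgk1, a kinase it induces, at 0.31 (SE 0.14). Of 17 genes of muscle atrophy and autophagy 11 lay higher (median 0.03), with Becn1, a component of the autophagy-initiating lipid kinase, at 0.30 (SE 0.11) and 0.04 in a second probe set.

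Among 5 Schwann cell and neural markers 4 lay higher (median 0.30). Cnp, a myelin enzyme, read 9.93, 9.76, 10.04 and 9.88 in rosuvastatin hearts, against 9.71, 9.57, 9.63 and 9.28 in control hearts, with no overlap (0.35, SE 0.12), and a second probe set lay at -0.02. Dbh, the enzyme that makes noradrenaline in sympathetic nerves, read 7.92, 7.61, 8.13 and 8.12 in rosuvastatin hearts, against 8.39, 8.54, 8.58 and 8.09 in control hearts. Its difference was -0.45 (SE 0.19), and control 4 lay within the rosuvastatin range. Cytosolic ribosomal proteins lay lower in 15 of 20 (median -0.05) and proteasome subunits higher in 17 of 25 (median 0.04), with no member of either at an unadjusted p under 0.05.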
